A study of Mus musculus with 12 samples.

Results

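The cholesterol synthesis pathway and its sterol sensors were followed as 29 genes of the 54838 gene identifiers counted in mouse liver. They were taken as a fixed list by symbol. It held 20 synthesis enzymes, 4 sterol-sensing genes around the transcription factor SREBP2, 2 SREBP2 targets in sterol transport, and 3 targets of the liver X receptors (LXR). Each of the 29 genes matched 1 identifier, and 29 of 29 were among the 13861 genes that passed the low-count filter. Livers came from C57BL/6J mice kept at 21% O2 or exposed to 7% O2 for 24 h. They were then injected with phosphate-buffered saline (PBS) or with dexamethasone (DEX), a synthetic glucocorticoid, at 10 mg/kg into the peritoneum, and sampled 2 h later, with the hypoxic mice returned to 7% O2 after the injection. The 4 groups are Normoxia_PBS, Normoxia_DEX, Hypoxia_PBS and Hypoxia_DEX, with 3 replicate libraries each. All groups had free access to food, and the sources used here give no age or sex.

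Cholesterol is built from acetyl-CoA through mevalonate, isoprenoid diphosphates, squalene and lanosterol. The synthesis genes are driven by SREBP2 (gene Srebf2), a membrane-bound factor that the escort protein SCAP carries from the endoplasmic reticulum to the Golgi for cleavage when sterols are low. INSIG1 and INSIG2 hold SCAP in the endoplasmic reticulum when sterols are high, and several steps after squalene consume molecular oxygen.

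Insig2 was the member with the largest rise, and it rose in all 4 pairwise comparisons of oxygen and DEX. Its mean level was 176 ± 38.9 CPM (counts relative to the TMM-scaled library total, SD, n = 3) in Normoxia_PBS and 1576 ± 270 CPM in Hypoxia_DEX. Hypoxia lowered Scap, Ebp and Sc5d in PBS mice, and separately in DEX mice, where no library is shared with the first comparison. Most of the other synthesis enzymes passed no test, and their replicate libraries lay far apart in hypoxia. In Hypoxia_PBS the highest and lowest library differed by a median of 6.17-fold over the 20 enzymes, against 1.25-fold in Normoxia_PBS.

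Total counts ranged from 12464687 to 24715995 per library, and no member had fewer than 24 counts in a library. The 10 hepatocyte markers summed to 122036 to 161576 CPM, with none of them at 0 in a group. On the first 2 principal components of the 1000 most variable genes (49.2% and 32.9% of the variance), 2 libraries stood apart from their groups. On the second component, which separated DEX from PBS, Hypoxia_PBS-1 scored -6.36 and Hypoxia_DEX-2 scored 9.22. The other Hypoxia_PBS libraries scored -25.48 and -22.24, and the other Hypoxia_DEX libraries 21.52 and 21.39. Hypoxia_DEX-1 and Hypoxia_DEX-3 were the closest replicate pair, at 1.79 chi-square units per gene against 10.54 to 38.45 for the other pairs. In that pair 9.16% of genes differed beyond sampling noise, against 22.73% to 42.37% in the other pairs. These values cannot show whether the pair came from separate mice, since no liver is known to have been sequenced again for comparison. The pair was kept as separate samples because the labels name it so, and Hypoxia_DEX may hold fewer than 3 independent mice. The spread of the enzymes and the counts of called members are given with and without the libraries named here. Whole liver was sequenced, so fewer cells of a type and less RNA per cell cannot be told apart.

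**Figure D1:**
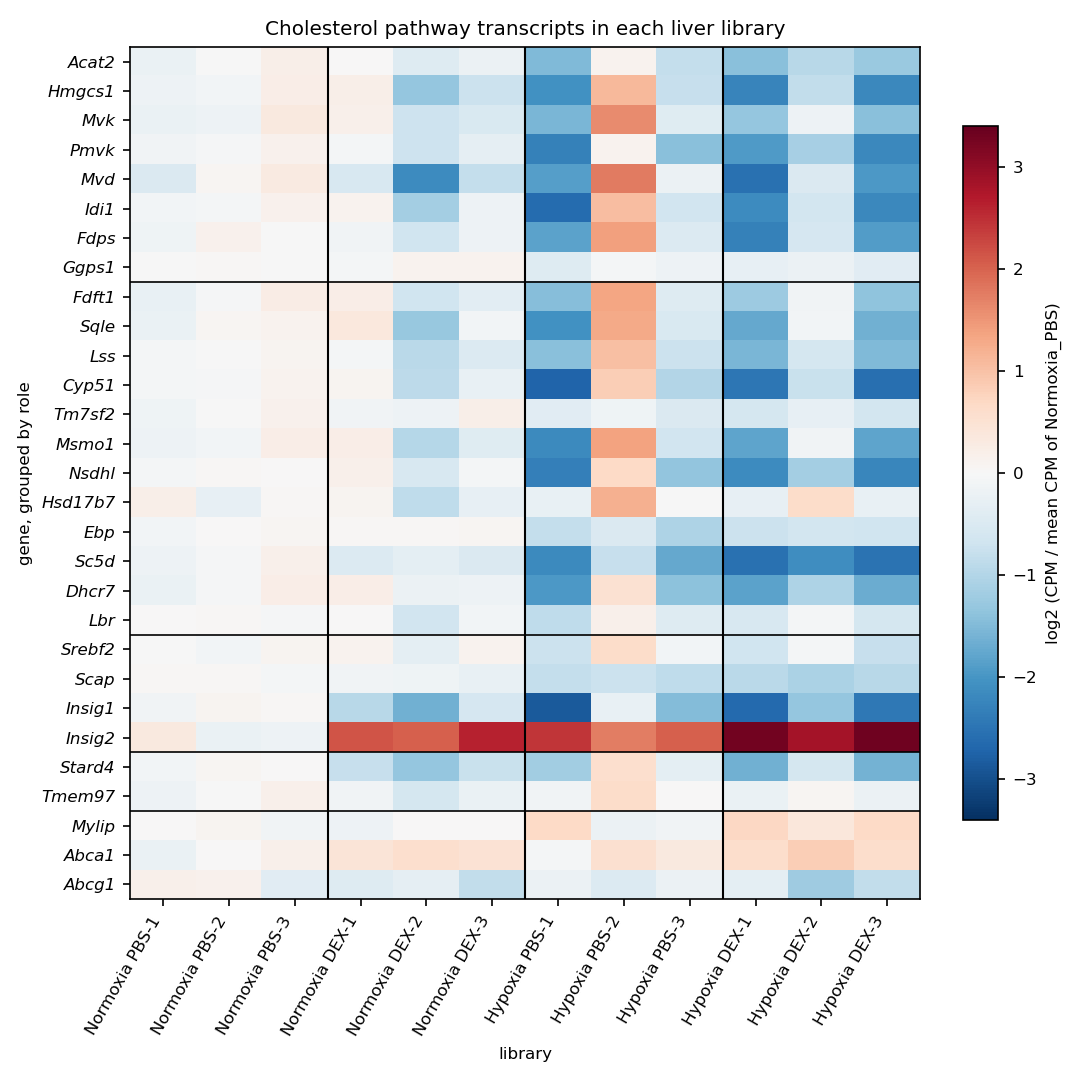
Level of each of the 29 genes (rows, grouped by role) in each of the 12 libraries (columns), as the log2 ratio of CPM to the mean CPM of Normoxia_PBS. Insig2 is red in all 9 libraries outside Normoxia_PBS, and the enzyme rows change colour between libraries of 1 group, with 16 of 20 enzymes above the Normoxia_PBS mean in Hypoxia_PBS-2 and 20 of 20 below it in Hypoxia_PBS-1.

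Promoter sequences of the members are described first, by motif matches without a test. RefSeq promoter windows on GRCm38.p6, from 250 bases before to 50 bases after a start site, were found for 24 of the 29 genes in 30 windows. Fdps, Fdft1, Sqle, Stard4 and Abcg1 had no entry. The NF-Y box CCAAT, searched on both strands, occurred in 21 of 24 genes and in 16 of 17 enzymes with a window. By window this was 70.0% of the members' windows against 37.4% of all 32851 windows. The sterol regulatory element core TCACNCCAC was found in 1 gene, Hmgcs1, which is 3.3% of the members' windows against 1.24% of all windows. The shorter form CACCCCAC, which overlaps that core, was found in Acat2 and Hmgcs1, 6.7% of the members' windows against 2.87% of all. The E-box CACGTG was present in 6 genes, 23.3% of the members' windows against 7.15% of all. Scap enters with 2 windows that overlap, so a site there can count in both. Shares over all promoters were computed by window and not by gene. The hypoxia response core ACGTG, which lies within that E-box, was present in 7 genes, 26.7% of the members' windows against 19.6% of all. Apart from Tmem97, these were the genes with the E-box. The glucocorticoid receptor motif AGAACA was present in 7 genes, 26.7% of the members' windows against 19.0% of all. These matches describe letters in a short window and were not tested as binding sites.

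Shown here are the 250 bases before the first listed start site of 4 genes, 5′ to 3′ on the gene's strand, with CCAAT or its reverse complement and the sterol element core in capitals. Hmgcs1 (chr13:119690101-119690350, plus strand) holds the core, Mvk (chr5:114444019-114444268, plus strand) has the most CCAAT matches, Sc5d (chr9:42264301-42264550, minus strand) was lowered by hypoxia, and Insig2 (chr1:121332590-121332839, minus strand) was raised.
Hmgcs1: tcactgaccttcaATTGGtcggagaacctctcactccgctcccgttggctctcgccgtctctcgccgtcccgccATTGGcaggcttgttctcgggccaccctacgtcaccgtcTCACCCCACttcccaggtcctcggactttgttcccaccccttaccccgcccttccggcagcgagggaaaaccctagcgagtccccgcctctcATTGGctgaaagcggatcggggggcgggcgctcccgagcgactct
Mvk: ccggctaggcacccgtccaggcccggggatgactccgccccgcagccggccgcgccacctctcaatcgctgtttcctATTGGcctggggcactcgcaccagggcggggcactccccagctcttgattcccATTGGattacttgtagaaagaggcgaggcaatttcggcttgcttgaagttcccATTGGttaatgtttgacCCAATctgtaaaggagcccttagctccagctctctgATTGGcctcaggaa
Sc5d: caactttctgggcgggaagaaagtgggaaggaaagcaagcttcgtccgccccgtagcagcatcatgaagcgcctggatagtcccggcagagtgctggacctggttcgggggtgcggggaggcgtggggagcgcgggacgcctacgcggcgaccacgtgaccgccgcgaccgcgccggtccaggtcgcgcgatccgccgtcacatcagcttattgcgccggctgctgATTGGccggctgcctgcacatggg
Insig2: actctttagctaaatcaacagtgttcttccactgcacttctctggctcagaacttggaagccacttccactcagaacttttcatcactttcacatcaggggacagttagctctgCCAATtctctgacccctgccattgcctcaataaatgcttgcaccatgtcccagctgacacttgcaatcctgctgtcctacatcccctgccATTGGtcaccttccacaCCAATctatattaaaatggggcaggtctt
Within these 250 bases Hmgcs1 has 3 CCAAT matches, Mvk 5, Sc5d 1 and Insig2 3. The RefSeq table lists 3 start windows for Insig2, and the other 2 hold no match of the 6 motifs. Insig2 is known to use alternative first exons, one of them enriched in liver, and the gene counts do not separate them.

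Sterol sensing held the largest rise and the most precise fall. Insig2 (mm10 chr1:121304353-121332589) measured 221, 151 and 158 CPM in the Normoxia_PBS libraries and 782, 718 and 1075 CPM in Normoxia_DEX. It measured 945, 585 and 728 CPM in Hypoxia_PBS and 1718, 1265 and 1745 CPM in Hypoxia_DEX. Every library of the 3 treated groups was above every Normoxia_PBS library, and Hypoxia_DEX did not overlap with any other group. Fitted with edgeR's quasi-likelihood test over all 12 libraries, with Benjamini-Hochberg adjustment over the 13861 genes, hypoxia raised Insig2 in PBS mice by 2.09 on the log2 scale (SE 0.23, adjusted p = 7.37e-05), a 4.27-fold rise. DEX raised it in normoxia by 2.28 (SE 0.23, adjusted p = 5.45e-05), a 4.86-fold rise. DEX in hypoxia raised it by a further 1.07 (SE 0.22, adjusted p = 0.0104), a 2.09-fold rise. Hypoxia in DEX mice raised it by 0.88 (SE 0.22, adjusted p = 0.00893). The DEX comparisons share control libraries with the hypoxia comparisons, so these rises are not independent of one another. The log2 response to DEX was smaller in hypoxia than in normoxia by 1.22 in size (interaction -1.22, SE 0.32), which did not pass edgeR's threshold (adjusted p = 0.105). It passed with DESeq2 (adjusted p = 0.00538) and when replicate numbers entered as blocks (adjusted p = 0.0186). On the linear scale the mean rose by DEX from 176 to 858 CPM in normoxia and from 753 to 1576 CPM in hypoxia.

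Scap (mm10 chr9:110333288-110384950), the sterol-sensing escort of SREBP2, measured 146, 145 and 135 CPM in Normoxia_PBS and 131, 129 and 119 CPM in Normoxia_DEX. It measured 80.7, 85.4 and 78.1 CPM in Hypoxia_PBS and 75.0, 67.3 and 74.1 CPM in Hypoxia_DEX. All 6 hypoxic libraries were below all 6 normoxic ones. The fall was by 0.81 on the log2 scale in PBS mice (SE 0.07, edgeR adjusted p = 4.44e-06) and by 0.81 in DEX mice (SE 0.07, adjusted p = 3.08e-06), which is 1.75-fold lower in each. An opposite-strand gene overlaps 985 exonic bases of Scap, and the sources used here do not say whether the counting used strand.

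Srebf2 itself did not pass the test in any of the 5 comparisons. It measured 84.4, 81.1 and 92.0 CPM in Normoxia_PBS and 93.5, 68.2 and 92.8 CPM in Normoxia_DEX. It measured 51.4, 133 and 80.0 CPM in Hypoxia_PBS and 53.6, 82.7 and 50.2 CPM in Hypoxia_DEX. The 2 hypoxic groups each had 1 library, replicate 2, above the other 2.

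Insig1, the INSIG isoform whose gene is itself an SREBP target, also did not pass in any comparison. It measured 228, 261 and 252 CPM in Normoxia_PBS and 129, 79.5 and 166 CPM in Normoxia_DEX. It measured 34.1, 206 and 88.8 CPM in Hypoxia_PBS and 39.6, 99.0 and 45.4 CPM in Hypoxia_DEX. Every library of the 3 treated groups was below the lowest Normoxia_PBS library, the reverse of Insig2, with up to 6.03-fold between replicates. The log2 difference was -1.17 for hypoxia in PBS mice (SE 0.62, edgeR adjusted p = 0.174), and without Hypoxia_PBS-2 it was -2.02 with an adjusted p of 0.0284. Srebf2 and Insig1 are shown in full because they are the factor and its regulated anchor, a choice made after their values were seen.

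**Figure D2:**
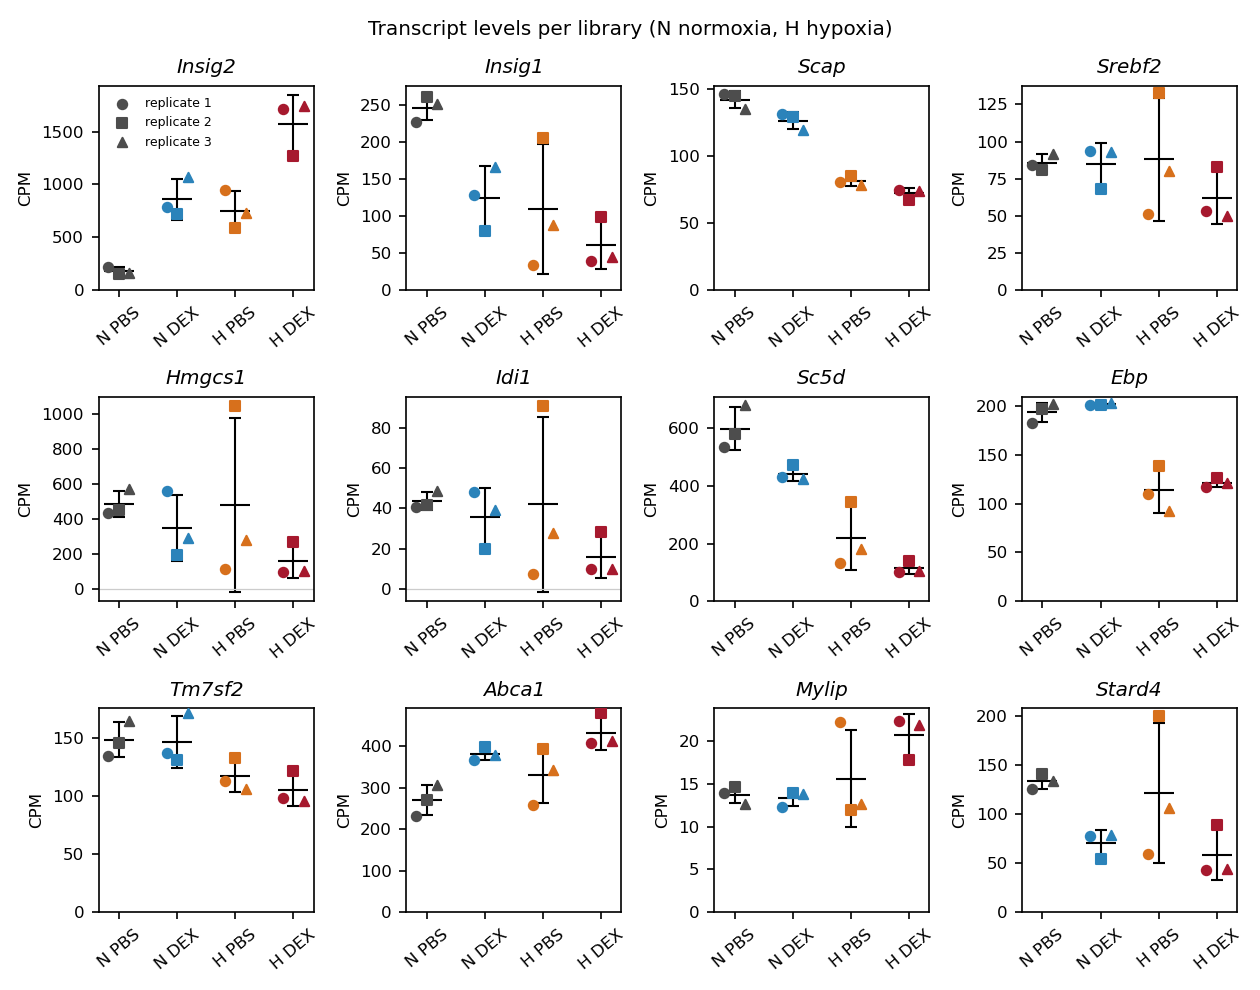
CPM of 12 of the 29 genes in each library, with points shaped by replicate number and with mean and SD (n = 3) as bars, for normoxia (N) and hypoxia (H) with PBS or DEX. Insig2 rises to 1576 ± 270 CPM in Hypoxia_DEX, Scap separates all hypoxic from all normoxic libraries, and Hmgcs1 and Idi1 have 1 high library, replicate 2, in each hypoxic group.

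The early mevalonate enzymes (Acat2, Hmgcs1, Mvk, Pmvk, Mvd, Idi1, Fdps and Ggps1) carry acetyl-CoA to farnesyl and geranylgeranyl diphosphate. Of these 8, none passed the test for hypoxia in PBS mice or for either DEX comparison. For hypoxia in DEX mice 2 were lower, beside 22.2% of all tested genes. Acat2 (mm10 chr17:12942890-12960747), the cytosolic acetoacetyl-CoA thiolase, measured 53.1, 38.8 and 45.7 CPM in Normoxia_DEX and 19.6, 27.3 and 22.1 CPM in Hypoxia_DEX. In PBS mice it measured 44.7, 52.1 and 60.4 CPM in normoxia and 18.6, 57.2 and 29.9 CPM in hypoxia. The DEX groups did not overlap, while Hypoxia_PBS-2 lay inside the normoxic range. The fall in DEX mice was by 1.0 on the log2 scale (SE 0.35, edgeR adjusted p = 0.0477) and it lost the threshold under 14 of 19 alternative settings, with adjusted p from 0.0011 to 0.138.

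Ggps1 (mm10 chr13:14050659-14063488), which makes geranylgeranyl diphosphate for protein prenylation, measured 11.1, 12.6 and 12.7 CPM in Normoxia_DEX and 9.65, 10.2 and 8.98 CPM in Hypoxia_DEX. It measured 11.5, 11.9 and 11.5 CPM in Normoxia_PBS and 8.53, 11.2 and 10.3 CPM in Hypoxia_PBS. Its range over all 12 libraries was narrow beside the other early enzymes. The fall in DEX mice was by 0.34 on the log2 scale (SE 0.11, edgeR adjusted p = 0.0258) and lost the threshold in 6 of 19 alternatives, with adjusted p up to 0.119, among them each setting without 1 of Hypoxia_DEX-1, Hypoxia_DEX-3, Normoxia_DEX-2 and Normoxia_DEX-3.

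The committed sterol enzymes run from squalene synthase (Fdft1) to the last reductions of the sterol ring and side chain. Of 12, 2 fell in hypoxia in PBS mice, where 16.8% of all tested genes fell, and 3 in DEX mice, where 22.2% fell. None passed in either DEX comparison. Sc5d (mm10 chr9:42251595-42264256), the lathosterol desaturase and a consumer of molecular oxygen, measured 534, 581 and 680 CPM in Normoxia_PBS and 134, 346 and 180 CPM in Hypoxia_PBS. It measured 431, 472 and 425 CPM in Normoxia_DEX and 103, 138 and 105 CPM in Hypoxia_DEX. No hypoxic library reached a normoxic one. The fall was by 1.45 on the log2 scale in PBS mice (SE 0.30, edgeR adjusted p = 0.00452), 2.72-fold lower, and by 1.94 in DEX mice (SE 0.30, adjusted p = 0.00069), 3.84-fold lower.

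DEX in hypoxia gave Sc5d a log2 difference of -0.93 (edgeR adjusted p = 0.0706), which passed with DESeq2, with the replicate block and without Hypoxia_PBS-1, with adjusted p over all alternatives from 0.00568 to 0.237. Sc5d also had the highest level per length of all 29 genes in Normoxia_PBS, at 123 ± 15.3 CPM per kilobase of exon, against 106 ± 16.2 for Hmgcs1 and 84.1 ± 4.22 for Ebp. In Hypoxia_DEX the highest was Insig2, at 454 ± 77.7 CPM per kilobase, against 23.7 ± 4.05 for Sc5d. The lowest gene per length in Normoxia_PBS was Abcg1, at 0.668 ± 0.133 CPM per kilobase.

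Ebp (mm10 chrX:8185329-8193512), the sterol isomerase that moves the ring double bond, measured 183, 197 and 202 CPM in Normoxia_PBS and 110, 139 and 93.1 CPM in Hypoxia_PBS. In DEX mice it measured 201, 201 and 204 CPM in normoxia and 117, 126 and 121 CPM in hypoxia. The hypoxic and normoxic libraries did not overlap, and Ebp had the narrowest spread of the enzymes within each DEX group. It fell by 0.77 on the log2 scale in PBS mice (SE 0.11, edgeR adjusted p = 0.000217) and by 0.74 in DEX mice (SE 0.11, adjusted p = 0.000194).

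Tm7sf2 (mm10 chr19:6062821-6068373), a sterol C14 reductase, measured 135, 146 and 165 CPM in Normoxia_PBS and 113, 133 and 106 CPM in Hypoxia_PBS. It measured 137, 131 and 172 CPM in Normoxia_DEX and 98.6, 122 and 96.2 CPM in Hypoxia_DEX. Within each treatment the hypoxic libraries were below the normoxic ones. In the edgeR fit the comparison in DEX mice passed, with a fall by 0.47 on the log2 scale (SE 0.13, adjusted p = 0.00938) that lost the threshold without Hypoxia_DEX-3 or Normoxia_DEX-3. In PBS mice the log2 difference was -0.34 (adjusted p = 0.0549), which passed in 7 of 19 alternatives (adjusted p from 0.0214 to 0.178). Tm7sf2 shares 532 exonic bases on the same strand with Vps51, so its level is uncertain.

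The other synthesis enzymes did not pass in any of the 5 comparisons in the edgeR fit. For hypoxia in DEX mice, DESeq2 lowered 8 members in place of 6, adding Nsdhl (edgeR log2 difference -1.65, adjusted p = 0.0873) and Dhcr7 (-1.46, adjusted p = 0.0736). Each of these passed in 5 of 19 alternatives, and Pmvk (-1.35, adjusted p = 0.0834) in 4, among them the settings without Hypoxia_PBS-1 and without Hypoxia_PBS-2. For hypoxia in PBS mice, 18 of 20 enzymes were not called, with log2 differences from -0.86 to 0.59 and SE up to 0.85. That largest SE exceeds the fall by 0.77 that was called for Ebp. Over the 29 members, hypoxia in PBS mice raised 1 and lowered 3, while 18.9% of all tested genes rose and 16.8% fell. The members' median log2 difference was -0.07 and that of all tested genes 0.01.

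DEX in normoxia raised 2 members, Insig2 and Abca1, and lowered 0, beside 9.38% and 7.40% of all tested genes. Of 29 log2 differences 25 were negative, beside 6883 of all 13861 tested genes, with a median of -0.29 against 0.00 over all tested genes. Most enzymes rose and fell together between libraries, so such signs are not independent of one another. At an unadjusted p under 0.05 there were 4 members in either direction, 13.8% of them against 29.2% of all tested genes, and DESeq2 lowered 0. A fit of the 2 compared groups alone put Sc5d and Stard4 among the lower genes. DEX in hypoxia raised 1 member, Insig2, and lowered 0, beside 6.13% and 7.05% of all tested genes. Again 25 of 29 log2 differences were negative, beside 7228 of all 13861 tested genes, with a median of -0.84 against -0.01 over all tested genes. At an unadjusted p under 0.05 there were 5 members, 17.2% against 26.8% of all tested genes, and DESeq2 lowered 1, Sc5d.

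Hypoxia in DEX mice raised 2 members, Insig2 and Mylip, and lowered 6, Acat2, Ggps1, Tm7sf2, Ebp, Sc5d and Scap, beside 20.7% and 22.2% of all tested genes. The members' median log2 difference was -0.71 against -0.02 over all tested genes. Of the 29, 24 were negative, beside 7160 of all 13861 tested genes. In the interaction, 0 members were higher and 0 lower with edgeR, beside 0.325% and 0.996% of all tested genes. At an unadjusted p under 0.05 there was 1 member, 3.45% against 12.3% of all tested genes. It was Insig2, which DESeq2 called lower.

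**Figure D3:**
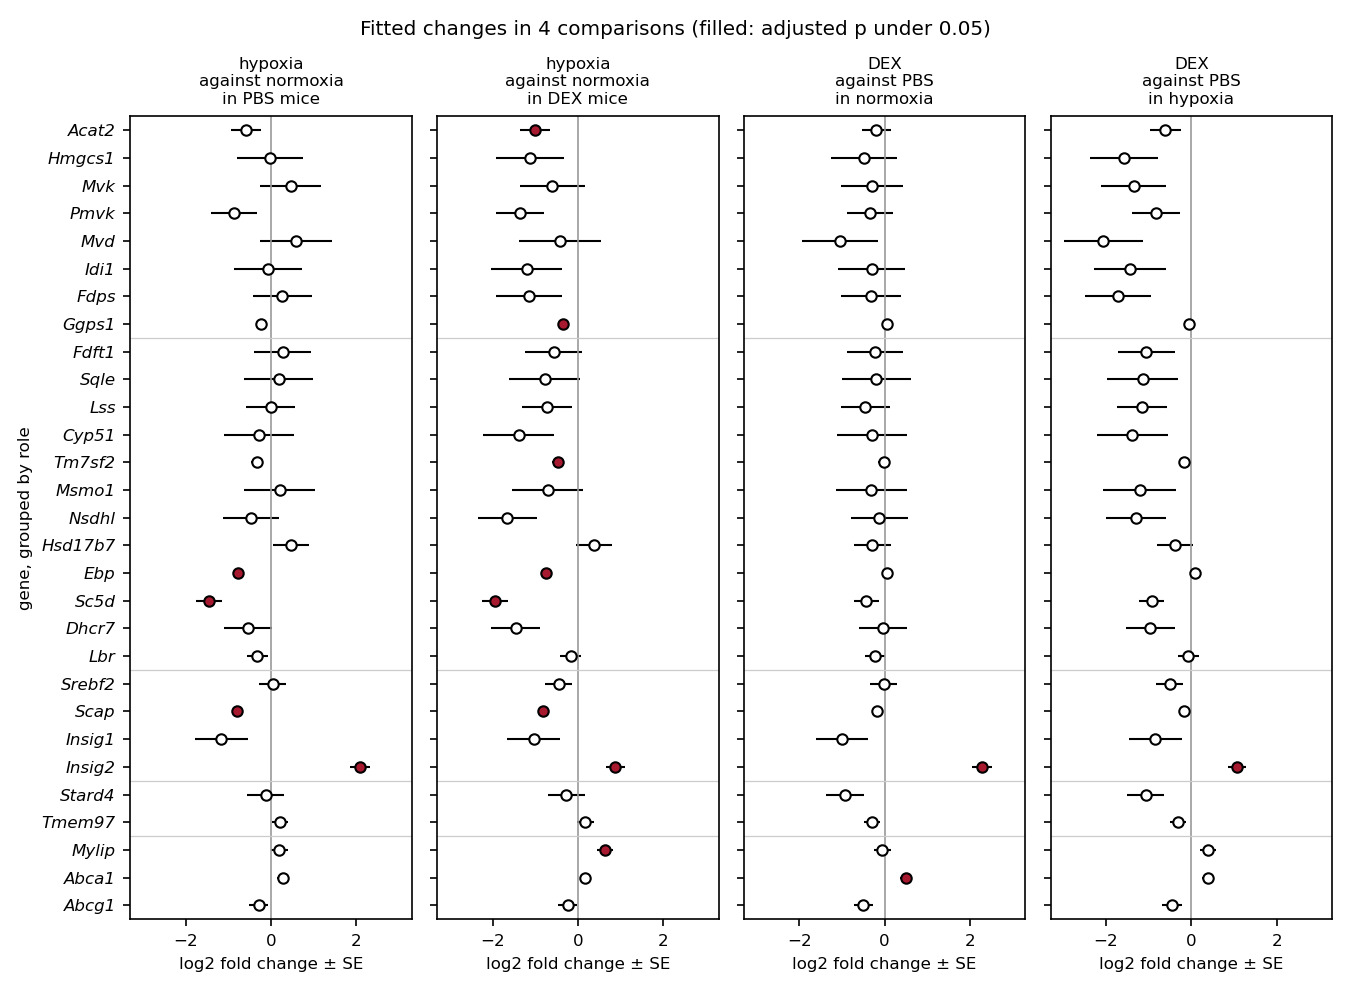
Fitted log2 fold change with SE of each of the 29 genes in 4 comparisons, filled where the edgeR adjusted p was under 0.05. Insig2 is filled on the right in all 4 panels, Scap, Ebp and Sc5d are filled on the left in both hypoxia panels, and the enzymes with long error bars are open.

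The spread among replicates was itself uneven. The SD of log2 (CPM + 0.5) over 3 libraries had a median of 0.16 over the 20 enzymes in Normoxia_PBS, against 0.14 over all tested genes. In Normoxia_DEX it was 0.40 against 0.12, in Hypoxia_DEX 0.57 against 0.13, and in Hypoxia_PBS 1.34 against 0.17. The enzyme median lay above 58.8% of all tested genes in Normoxia_PBS and above 99.6% in Hypoxia_PBS. Within Hypoxia_PBS 20 of 20 enzymes were above the all-gene median.

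The order of the libraries was shared by most enzymes. Hypoxia_PBS-2 was the highest library of its group for 20 of 20 enzymes, beside 34.9% of all tested genes, and Hypoxia_PBS-1 was the lowest for 18. Hypoxia_DEX-2 was the highest for 20 of 20, beside 39.7% of all tested genes. In Normoxia_DEX, replicate 1 was the highest for 16 enzymes, beside 29.5% of all tested genes, and replicate 2 the lowest for 18, beside 31.7%. Normoxia_PBS had a shared order too, over a narrow range, with replicate 1 the lowest for 17 enzymes and replicate 3 the highest for 15.

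The spread was recomputed over the remaining 2 libraries of a group, a choice made after the data were seen. The median SD of the enzymes in Hypoxia_PBS was 1.24 without Hypoxia_PBS-1, 0.64 without Hypoxia_PBS-2 and 1.84 without Hypoxia_PBS-3, against 0.11, 0.13 and 0.16 over all tested genes. The median high-to-low ratio went from 6.17 to 3.38, 1.90 and 6.17 in these settings. In Hypoxia_DEX the median SD was 0.06 without Hypoxia_DEX-2, against 0.07 over all tested genes, and 0.75 and 0.68 without Hypoxia_DEX-1 and Hypoxia_DEX-3. In Normoxia_DEX it was 0.22 without Normoxia_DEX-2, and in Normoxia_PBS 0.07 without Normoxia_PBS-3. The wide spread of Hypoxia_DEX was thus not seen without replicate 2. That setting leaves only Hypoxia_DEX-1 and Hypoxia_DEX-3, the closest replicate pair over all genes. A narrow spread was therefore given in advance there, and it cannot show replicate 2 to be the source of the spread. Every pair of Hypoxia_PBS libraries kept an enzyme median above that of 96.6% or more of all tested genes.

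Relative to the Normoxia_PBS mean, the median enzyme ratio was 0.277 in Hypoxia_PBS-1, 1.91 in Hypoxia_PBS-2 and 0.638 in Hypoxia_PBS-3. It was 0.294, 0.666 and 0.314 in Hypoxia_DEX-1, Hypoxia_DEX-2 and Hypoxia_DEX-3, and 1.05, 0.622 and 0.857 in the Normoxia_DEX libraries. The value of Hypoxia_PBS-1 was beside those of Hypoxia_DEX-1 and Hypoxia_DEX-3, and that of Hypoxia_DEX-2 beside that of Hypoxia_PBS-3. These are the 2 libraries that stood apart on the second component, and every library is grouped here by its label. Of the 6 hypoxic libraries, 5 thus had a median below that of every Normoxia_PBS library, and 1 was above.

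Hmgcs1 and Idi1 show the pattern and were chosen for it after their values were seen. Hmgcs1, the cytosolic HMG-CoA synthase, measured 437, 454 and 574 CPM in Normoxia_PBS, 560, 196 and 293 CPM in Normoxia_DEX, 117, 1045 and 282 CPM in Hypoxia_PBS, and 102, 273 and 107 CPM in Hypoxia_DEX. Idi1, the isopentenyl diphosphate isomerase, had the widest spread, with 7.19, 91.0 and 27.9 CPM in Hypoxia_PBS and 9.88, 28.3 and 9.61 CPM in Hypoxia_DEX. In Normoxia_PBS Idi1 measured 40.7, 41.8 and 48.9 CPM. Its highest Hypoxia_PBS library was 12.7-fold above the lowest, against 1.2-fold between the Normoxia_PBS libraries.

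The enzymes that passed no test had the same shape. Mvk, Pmvk and Mvd carry out the phosphorylations and the decarboxylation of mevalonate, and Fdps makes farnesyl diphosphate. From lowest to highest library of Hypoxia_PBS, Mvk ran from 6.20 to 55.9 CPM, Pmvk from 12.8 to 67.8, Mvd from 5.26 to 66.4 and Fdps from 3.74 to 35.0. Fdft1, Lss, Msmo1 and Nsdhl, which form squalene, close the ring to lanosterol and remove its C4 methyl groups, ran from 40.5 to 277, 25.0 to 136, 44.0 to 514 and 14.8 to 118 CPM in that group. Dhcr7, the last reductase for the ring double bond, ran from 23.3 to 128 CPM, and Lbr, a C14 reductase that is also the lamin B receptor, from 9.94 to 20.5 CPM. Hsd17b7, the 3-ketosteroid reductase, ran from 81.7 to 225 CPM, and was the 1 enzyme of 20 with a positive log2 difference for hypoxia in DEX mice, 0.38, which did not pass. In Hypoxia_DEX the same 11 genes were again highest in replicate 2.

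Ggps1, Tm7sf2 and Ebp stayed outside this pattern in size, with high-to-low ratios of 1.31, 1.26 and 1.5 in Hypoxia_PBS. Insig2 ran the other way in the hypoxic groups, with its lowest value in Hypoxia_PBS-2 (585 CPM) and in Hypoxia_DEX-2 (1265 CPM). Of the wider SREBP set, the 8 fatty acid side genes shared with SREBP1 were also highest in Hypoxia_PBS-2 for 7 and in Hypoxia_DEX-2 for 7, with a smaller median high-to-low ratio of 1.52 and 1.22.

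Other values moved with these libraries. The 3 neutrophil markers summed to 10.4, 55.6 and 21.3 CPM in Hypoxia_PBS and to 9.05, 23.2 and 8.56 CPM in Hypoxia_DEX, so replicate 2 was highest in both. They ranged over 18 to 27.9 CPM in Normoxia_PBS and 4.48 to 9.01 CPM in Normoxia_DEX, with Ly6g at 0 in all libraries of both DEX groups. Replicate 2 also had the smallest total count in both hypoxic groups, 14273137 and 12464687, while Normoxia_DEX-2, lowest for 18 enzymes, had the largest, 24715995. The part of these values in the spread was not tested.

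Leaving out single libraries changed the counts. Without Hypoxia_PBS-2, hypoxia in PBS mice lowered 10 members in place of 3, adding Acat2, Pmvk, Tm7sf2, Nsdhl, Dhcr7, Lbr and Insig1, and the enzymes' median log2 difference went from -0.15 to -1.08. In the same setting the enzymes' median response to DEX in hypoxia went from -1.10 to 0.01. Over all tested genes, the count lower for hypoxia in PBS mice ran from 1768 to 2464 over the alternatives (2335 in the main setting). Without Hypoxia_PBS-1, DEX in hypoxia lowered Fdps, Sc5d and Stard4, with an enzyme median of -1.51. Without both Hypoxia_PBS-1 and Hypoxia_DEX-2 it lowered 8 members, Mvd, Idi1, Fdps, Cyp51, Sc5d, Srebf2, Insig1 and Stard4, with an enzyme median of -1.93, and raised Insig2 and Mylip. Over all tested genes 1407 were lower and 1235 higher in this setting, against 977 and 850 in the main setting. Both libraries lay toward the other treatment on the second component, so leaving them out tends to widen the DEX contrast in advance. The Hypoxia_DEX libraries that remain are the closest replicate pair. These calls therefore cannot show an effect of DEX apart from the choice of libraries. The calls of Insig2, Scap, Ebp and Sc5d in both hypoxia comparisons, and of Insig2 in both DEX comparisons, held in all 19 alternatives.

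Sqle, Cyp51, Msmo1 and Sc5d are the 4 enzymes among the members whose reactions use molecular oxygen. For hypoxia in PBS mice their median log2 difference was -0.06, with Sc5d alone called, against -0.15 and 1 called of the other 16 enzymes. In DEX mice it was -1.08, again with Sc5d alone called, against -0.73 and 4 called of the other 16. All these calls were lower, beside 16.8% of all tested genes lower in PBS mice and 22.2% in DEX mice. Sqle, Cyp51 and Msmo1 followed the spread described above, with Hypoxia_PBS values of 25.4, 259 and 73.4 CPM for Sqle and 33.4, 398 and 110 CPM for Cyp51.

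Of the 5 electron donors that serve such enzymes, hypoxia in PBS mice raised 2 and lowered 3, beside 18.9% and 16.8% of all tested genes. Por, the reductase that feeds electrons to CYP51 and squalene epoxidase, measured 297, 252 and 287 CPM in Normoxia_PBS, 655, 669 and 649 CPM in Normoxia_DEX, 609, 446 and 452 CPM in Hypoxia_PBS, and 1003, 1011 and 1020 CPM in Hypoxia_DEX. It rose by 0.85 on the log2 scale with hypoxia in PBS mice (SE 0.11, edgeR adjusted p = 8.39e-05) and by 1.24 with DEX in normoxia (SE 0.11, adjusted p = 4.68e-06). With DEX in hypoxia it rose by 1.01 (SE 0.11, adjusted p = 6.72e-05), and with hypoxia in DEX mice by 0.62 (SE 0.11, adjusted p = 0.000557). Cyb5b, a cytochrome b5 of the outer mitochondrial membrane, fell with hypoxia by 1.06 in PBS mice (adjusted p = 0.000296) and by 1.33 in DEX mice (adjusted p = 3.85e-05). Cyb5a, the other cytochrome b5 of the list, was named after its values were seen. It rose with hypoxia in PBS mice by 0.33 (SE 0.09, edgeR adjusted p = 0.0132), from a mean of 677 ± 68.9 to 850 ± 11.7 CPM.

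Of the SREBP2 targets in transport, neither Stard4, a soluble sterol carrier, nor Tmem97, a protein of the endoplasmic reticulum bound up with NPC1 turnover, passed in any comparison. Stard4 measured 126, 141 and 134 CPM in Normoxia_PBS and 78.2, 54.2 and 78.6 CPM in Normoxia_DEX, with no overlap. It measured 59.3, 200 and 106 CPM in Hypoxia_PBS and 42.9, 88.7 and 43.9 CPM in Hypoxia_DEX. The log2 difference for DEX in normoxia was -0.93 (edgeR adjusted p = 0.201), and it passed with only those 2 groups in the fit (adjusted p over alternatives from 0.00194 to 0.396). Tmem97 ranged from 31.0 CPM in Normoxia_DEX-2 to 71.3 CPM in Hypoxia_PBS-2.

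The LXR targets act when sterols are abundant. Abca1 (mm10 chr4:53030787-53159895), the exporter that loads cholesterol onto apolipoprotein A-I, measured 233, 271 and 307 CPM in Normoxia_PBS and 368, 399 and 380 CPM in Normoxia_DEX. It measured 259, 394 and 342 CPM in Hypoxia_PBS and 407, 480 and 412 CPM in Hypoxia_DEX. Each DEX group lay above its PBS group without overlap. The rise in normoxia was by 0.50 on the log2 scale (SE 0.14, edgeR adjusted p = 0.0238), and it lost the threshold without Normoxia_PBS-1, Normoxia_PBS-2, Normoxia_DEX-2 or Normoxia_DEX-3 (adjusted p up to 0.0952). In hypoxia the log2 difference was 0.39 (adjusted p = 0.0863), which passed with the replicate block and without Hypoxia_PBS-2 (adjusted p over alternatives from 0.0177 to 0.305). The interaction did not pass.

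Mylip (mm10 chr13:45389742-45412022), the ubiquitin ligase IDOL that marks lipoprotein receptors for breakdown, measured 14.0, 14.6 and 12.7 CPM in Normoxia_PBS and 12.3, 14.0 and 13.8 CPM in Normoxia_DEX. It measured 22.2, 12 and 12.7 CPM in Hypoxia_PBS and 22.4, 17.8 and 21.9 CPM in Hypoxia_DEX. Hypoxia_PBS-1 was at the level of Hypoxia_DEX, and the other Hypoxia_PBS libraries at the level of normoxia. Hypoxia in DEX mice raised it by 0.64 on the log2 scale (SE 0.19, edgeR adjusted p = 0.0191), which lost the threshold without Hypoxia_DEX-1, Hypoxia_DEX-3 or Normoxia_DEX-1, without the low-count filter, and with Hypoxia_DEX-1 and Hypoxia_DEX-3 summed. Without Hypoxia_PBS-1, the interaction of Mylip passed, with a log2 difference of 0.84 (SE 0.16, adjusted p = 0.0157) against 0.45 (adjusted p = 0.565) with that library.

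Abcg1, an exporter to high-density lipoprotein, ranged from 2.10 to 5.51 CPM and did not pass in any comparison. Kupffer cells also express Abca1 and Abcg1, and the 12 Kupffer cell and macrophage markers were lower in hypoxia for 12 of 12 in PBS mice and 12 of 12 in DEX mice. Their sum ranged over 527 to 695 CPM in Normoxia_PBS, 570 to 804 in Normoxia_DEX, 215 to 264 in Hypoxia_PBS and 228 to 249 in Hypoxia_DEX, with none at 0 in a group. Their part in the levels of these exporters was not tested.

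Lists of neighbouring genes were counted in the same fit. Of 14 genes of SREBP processing and turnover, hypoxia in PBS mice raised 2 and lowered 3, beside 18.9% and 16.8% of all tested genes. Srebf1, which encodes the lipogenic SREBP1, fell by 1.16 on the log2 scale (SE 0.25, edgeR adjusted p = 0.00544) and in DEX mice by 0.99 (SE 0.25, adjusted p = 0.0101). Nfyb, a subunit of the CCAAT-binding factor NF-Y, fell in PBS mice by 0.62 (adjusted p = 0.000469) and with DEX in normoxia by 0.72 (adjusted p = 0.000211). Its smaller falls with DEX in hypoxia (by 0.43, adjusted p = 0.0149) and with hypoxia in DEX mice (by 0.33, adjusted p = 0.0197) each lost the threshold in 3 of 19 alternatives. Nfyb measured 40.9, 43.3 and 39.2 CPM in Normoxia_PBS and 18.8, 20.3 and 20.6 CPM in Hypoxia_DEX. The other NF-Y subunits had positive log2 differences in both hypoxia comparisons. Nfyc rose with hypoxia in DEX mice by 0.53 (SE 0.10, adjusted p = 0.0011), a call kept in 19 of 19 alternatives, and had a log2 difference of 0.27 in PBS mice (adjusted p = 0.0582). Nfya, named after its values were seen, rose with hypoxia in PBS mice by 0.34 (SE 0.13, adjusted p = 0.0497), close to the threshold, and had a log2 difference of 0.29 in DEX mice (adjusted p = 0.0794).

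Of 16 sterol transport and storage genes, hypoxia in PBS mice raised 6 and lowered 4, beside 18.9% and 16.8% of all tested genes. In DEX mice hypoxia raised 5 and lowered 7, beside 20.7% and 22.2%. Npc1 and Npc2 work in series to pass cholesterol out of lysosomes, and they moved apart. Npc1 rose by 0.83 on the log2 scale in PBS mice (adjusted p = 0.00102) and by 1.05 in DEX mice (adjusted p = 0.000144). Npc2 fell by 0.62 (adjusted p = 5.04e-05) and by 0.70 (adjusted p = 1.45e-05). Npc2 is also abundant in macrophages, whose markers fell in the same comparisons, and their part was not tested. Stard5, a sterol-binding carrier, rose by 1.15 (adjusted p = 0.000121) and by 1.05 (adjusted p = 0.00015). Scarb1, the receptor for high-density lipoprotein, rose with DEX in normoxia by 0.59 (adjusted p = 0.00397) and was lower in hypoxia in DEX mice by 0.82 (log2 difference -0.82, adjusted p = 0.000169).

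Of 10 LXR receptor and other LXR target genes, hypoxia in PBS mice lowered 7 and raised 0, beside 16.8% and 18.9% of all tested genes. At an unadjusted p under 0.05 there were 8, which is 80.0% against 45.2% of all tested genes. Hypoxia in DEX mice lowered 5 of the 10 and raised 0, beside 22.2% and 20.7%. With hypoxia in PBS mice, Pltp fell by 0.95 on the log2 scale (adjusted p = 7.28e-05). Abcg5, part of the biliary sterol exporter, fell there by 0.58 (adjusted p = 0.00789), and Scd1, the stearoyl-CoA desaturase, by 1.60 (adjusted p = 0.0041). The log2 differences for hypoxia in DEX mice were -0.73 for Pltp, -0.77 for Abcg5 and -1.62 for Scd1. Of the 8 fatty acid side genes, hypoxia in PBS mice lowered 4 and raised 1, beside 16.8% and 18.9% of all tested genes. In DEX mice hypoxia lowered 5 and raised 1, beside 22.2% and 20.7%. Acss2, which makes acetyl-CoA from acetate, fell by 1.84 (adjusted p = 0.00224) and by 2.04 (adjusted p = 0.000941). The desaturase gene Fads1 fell by 1.41 (adjusted p = 3.02e-05) and by 1.57 (adjusted p = 9.64e-06).

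The non-sterol isoprenoid branch leads to dolichol, ubiquinone and prenylated proteins. Of its 12 listed genes, hypoxia in PBS mice raised 2 and lowered 1, beside 18.9% and 16.8% of all tested genes. Nus1, a subunit of the dolichol-forming transferase, rose by 0.38 on the log2 scale (adjusted p = 0.000388), and Pdss2, of the ubiquinone side chain synthase, fell by 0.57 (adjusted p = 0.0105). For hypoxia in DEX mice the same list had 2 higher and 1 lower, beside 20.7% and 22.2%. DEX in normoxia, beside 9.38% of all tested genes higher and 7.40% lower, raised 1 and lowered 1 of the 16 transport genes, lowered 2 of the 14 SREBP processing genes and 1 of the 10 LXR genes, and raised 1 of the 5 electron donors and 1 of the 12 isoprenoid genes. DEX in hypoxia, beside 6.13% higher and 7.05% lower, lowered 1 of the 14 processing genes and 1 of the 16 transport genes, and raised 1 electron donor, Por. Srebf1, Abcg5 and Abcg8 stand in more than 1 of these lists.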

How the data were processed

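Polyadenylated RNA of 12 mouse livers was sequenced from a stranded kit, per the labels' protocols. The authors deposited raw read counts per gene. Tools named in the submitters' processing notes, without roles, are DESeq2, featureCounts, SAMtools, Trimmomatic and HISAT2 2.0.4, and the build is mm10. The gene annotation and the use of strand were not stated in these sources. The labels' protocol names both oxygen arms as the hypoxic one, and the titles, which name normoxia, were followed.

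These counts entered edgeR 4.0.16 in R 4.3.3 (filterByExpr, TMM, estimateDisp, robust glmQLFit, glmQLFTest), with 1 mean per group over 12 libraries and 8 residual degrees of freedom. Adjusted p under 0.05 over all tested genes was the threshold, and SE is the log2 fold change divided by the root of F. CPM uses TMM-scaled library sizes. Symbols, positions and exon lengths are from GENCODE release M21, and 54723 identifiers had a symbol. The fit was tested on simulated data. Alternatives were DESeq2 1.42.0, RLE scaling, a replicate block, no filter on low counts, only the compared groups, each library left out, Hypoxia_DEX-1 and Hypoxia_DEX-3 summed, and Hypoxia_DEX-2 and Hypoxia_PBS-1 left out.

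The members, gene lists, markers and alternatives were chosen with earlier results of these data known. Members called in a comparison are given per library, and lists by counts with up to 4 genes of smallest adjusted p. Figures used matplotlib 3.10.9. Some genes of the pathway were not analysed here.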

Additional observations from a re-analysis of the deposited data

How the results depend on the processing

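Directions were mostly kept. Of 2726 member values over 5 comparisons and 19 alternatives, 120 had the opposite sign, and 0 of these passed the threshold under either setting. Insig1 for DEX in hypoxia turned from -0.84 to 0.01 on the log2 scale without Hypoxia_PBS-2, and ranged from -1.34 to 0.01 with 1 library left out. The interaction used all groups, so the setting with only the compared groups was not run for it.

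Counts of called members moved as follows, as higher and lower members. With 1 library left out, hypoxia in PBS mice had 1 to 2 higher and 3 to 10 lower, DEX in normoxia 1 to 2 higher and 0 to 1 lower, and DEX in hypoxia 1 to 2 higher and 0 to 3 lower. In the same way the interaction had 0 to 1 higher and hypoxia in DEX mice 1 to 2 higher and 3 to 9 lower. Without both Hypoxia_DEX-2 and Hypoxia_PBS-1, hypoxia in PBS mice had 2 higher, DEX in normoxia 1 lower, DEX in hypoxia 2 higher and 8 lower, the interaction 1 higher, and hypoxia in DEX mice 12 lower. With only the compared groups, DEX in normoxia had 2 lower. DESeq2 gave 1 lower for DEX in hypoxia and 1 lower for the interaction. Without the low-count filter, and with Hypoxia_DEX-1 and Hypoxia_DEX-3 summed, hypoxia in DEX mice had 1 higher. The setting without both Hypoxia_DEX-2 and Hypoxia_PBS-1 left out libraries that lay toward the other treatment, so a wider DEX contrast was partly given in advance. The cause of each shift was not tested.

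The replicate block gave 2 higher and 1 lower for DEX in hypoxia and 1 lower for the interaction. Same-numbered libraries of different groups correlated in their deviations from the group means with r from -0.151 to 0.39 over 18 pairs, with 4 above 0.1. Their median r was 0.0136, against -0.0136 for pairs with other numbers, which reached 0.303. The numbers were therefore not taken as pairs. Over all tested genes, the count higher for DEX in hypoxia ran from 536 to 1235 (850 in the main setting) and the count lower from 474 to 1407 (977). For the interaction they ran from 17 to 151 (45) and from 46 to 324 (138). For hypoxia in PBS mice they ran from 1957 to 2620 (2618) and from 1768 to 2464 (2335). For hypoxia in DEX mice they ran from 2413 to 3228 (2865) and from 2305 to 3205 (3078). For DEX in normoxia they ran from 959 to 1484 (1300) and from 718 to 1523 (1026).

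With 3 libraries a group, SE reached 0.93 on the log2 scale for members in the DEX comparison in hypoxia, so only large changes of the variable enzymes could pass. The lowest total of a member over 12 libraries was 785 counts, and the lowest count in 1 library was 24. The part of counting depth in the missing calls was not tested. Levels of overlapping genes are uncertain: Fdps shares 1124 exonic bases on the same strand with Gm43738, which was at 0 CPM in all libraries.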
